A study of Mus musculus with 5 samples.

Results

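Solute carriers are membrane proteins that move amino acids, sugars, ions, metals, vitamins and metabolites across the plasma membrane and the membranes of organelles. Genes of this superfamily were taken as every gene on the array whose symbol starts with Slc, except Slc2a1, Slc7a2, Slc11a1, Slc25a20 and Slc40a1, and with a mean signal over the 5 arrays of at least 500. The array carried 154 such genes on 188 probe sets; 150 remained after the named exceptions, and 88 of these, out of 8251 genes with a single symbol, had the required signal. Each gene was represented by its probe set with the highest mean signal. Not every gene of the set encodes a carrier: Slc9a3r1 and Slc9a3r2 encode scaffold proteins that bind a sodium-proton exchanger, and Slc4a1ap encodes a protein named for binding an anion exchanger. The genes were chosen by symbol and by these mean signals, which also picked the probe set of each gene and the genes of the fit, and 114 probe sets measured them, 22 genes having more than 1. Just inside the threshold lay Slc16a7 (mean signal 520) and Slc4a3 (524), and just outside it Slc51a (497) and Slc4a1 (492).

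RNA of peritoneal macrophages from mice was hybridised to Affymetrix MG-U74Av2 arrays to learn whether 1 oral dose of ethanol changes what is induced by poly IC, a synthetic double-stranded RNA that is sensed as viral RNA is. One array held RNA of an untreated control, which was called naive and for which no sex, age or strain was given. For each of the other groups, 2 arrays were made: each of a separate pool of mice that had received either poly IC or both poly IC and ethanol at 6 g/kg. The treated mice were 12-week-old females of a C57Bl/6 x C3H F1 cross, and the poly IC dose was 0.1 mg per mouse, although the label of 1 pool (poly IC replicate 1) leaves the dose out. All ethanol-treated mice also received poly IC, so an effect of ethanol by itself and an effect on the response to poly IC cannot be told apart. The number of mice per pool was not given, and p-values measured the spread between pools, not between animals. The naive group has n = 1 throughout, and the fit takes its spread from the treated arrays.

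In macrophages, carriers supply the amino acids and sugars that activation consumes, and they return metals and ions across the membranes of phagosomes and lysosomes. Some amino acid carriers of the Slc7 family, among them Slc7a5 and Slc7a7, work as light chains bound to Slc3a2, the heavy chain that takes them to the cell surface. Carriers of the Slc25 family lie mostly in the inner mitochondrial membrane and exchange nucleotides, metabolites and cofactors between the cytosol and the matrix. Zinc leaves the cytosol through Slc30 proteins and enters it through Slc39 proteins.

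For 72 of the 88 genes, RefSeq (GRCm38.p6) provided at least 1 promoter window, 104 windows in all. The 250 bases before the start of transcription are given 5′ to 3′ on the gene's strand for Slc10a6, the gene with the largest difference with ethanol, and for Slc25a36 and Slc25a4, mitochondrial carriers whose group means had the same order. Capitals mark matches to the motifs searched, on either strand. The Slc10a6 window lies on the minus strand at chr5:103629404-103629653, that of Slc25a36 on the minus strand at chr9:97111042-97111291, and that of Slc25a4 on the minus strand at chr8:46211063-46211312.
Slc10a6: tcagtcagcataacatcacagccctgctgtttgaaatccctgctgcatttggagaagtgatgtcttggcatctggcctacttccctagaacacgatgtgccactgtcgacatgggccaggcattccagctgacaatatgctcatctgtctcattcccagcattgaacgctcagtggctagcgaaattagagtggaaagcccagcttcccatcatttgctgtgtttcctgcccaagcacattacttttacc
Slc25a36: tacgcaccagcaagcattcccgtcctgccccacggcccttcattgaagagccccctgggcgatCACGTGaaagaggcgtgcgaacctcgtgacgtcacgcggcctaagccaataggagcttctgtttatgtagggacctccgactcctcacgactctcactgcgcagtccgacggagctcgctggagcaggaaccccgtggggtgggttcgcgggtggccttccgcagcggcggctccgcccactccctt
Slc25a4: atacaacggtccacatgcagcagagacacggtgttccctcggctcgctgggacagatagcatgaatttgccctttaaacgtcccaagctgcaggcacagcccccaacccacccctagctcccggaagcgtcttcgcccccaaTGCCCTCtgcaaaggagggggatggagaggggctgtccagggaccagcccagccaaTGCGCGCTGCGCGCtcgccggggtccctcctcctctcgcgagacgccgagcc

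The motifs searched were the interferon-stimulated response element (GAAA, any 2 bases, GAAA), the metal response element (TGCNCNC), the amino acid response element (TGATGNAA), the antioxidant response element (TGACNNNGC), the hypoxia response element (ACGTG) and a kappa B site (GGG, any 3 bases, TTCC). Slc10a6 held none of them. Slc25a36 held the hypoxia response element on both strands in overlapping letters, from 187 to 182 bases before the start, a motif found in 16.6% of all 32851 windows of the same length. Slc25a4 held 3 copies of the metal response element, from 108 to 102, 52 to 46 and 45 to 39 bases before the start, a motif found in 44.4% of all windows. Among the members' 104 windows, 1 held the interferon-stimulated response element (0.962%, against 2.98% of all windows), 50 the metal response element (48.1%), 5 the amino acid response element (4.81%, against 3.45%), 17 the antioxidant response element (16.3%, against 10.2%), 20 the hypoxia response element (19.2%) and 6 the kappa B site (5.77%, against 4.65%). A match describes letters only, and no factor's binding was measured.

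Signals are MAS 5.0 intensities, scaled by the submitters to 1 target, so that all arrays have nearly the same trimmed mean. Each difference is one of log2(signal + 250), a scale that makes changes of dim genes look smaller, and comes with the standard error (SE) of a limma fit over all 5622 genes with the required signal. A gene was said to rise or fall at an adjusted p under 0.05 (Benjamini-Hochberg over all of them). Brightness differs between probe sets, so no gene's level was set against another's. Of the 88 genes, 75 had a mean of at least 500 in all 3 groups. The signal of the brightest among 19 control probe sets with no spiked target served as a floor, and 3 genes had a naive value under it, 4 a poly IC mean and 2 an ethanol mean.

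With poly IC plus ethanol, compared with poly IC alone, 5 solute carrier genes rose and 1 fell. The riser with the largest difference was Slc10a6, a sodium-dependent carrier of sulphated steroids, followed by the mitochondrial carriers Slc25a36, Slc25a51 and Slc25a4 and the magnesium carrier Slc41a1. The gene that fell was Slc31a1, which takes up copper. These 6 of 88 genes compare with 10.4% of all genes tested that differed in either direction, 5.69% higher and 4.73% lower. The median difference was 0.10 over the 88 genes and 0.08 over all genes. With median-centred arrays the split was 3 higher and 2 lower, Slc7a5 being the second that fell (-0.62), and with quantile normalization 3 and 1. A further 12 of the 18 genes with an unadjusted p under 0.05 did not pass after adjustment.

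The Slc10a6 signal was 1478 in naive cells, 4325 and 3732 after poly IC, and 13898 and 10662 after poly IC plus ethanol. The 3 groups did not overlap, and each step was upward. With ethanol the mean was 12280 ± 2288 (SD, n = 2) against 4028 ± 419 (SD, n = 2) with poly IC, 3.05 times as high (log2 difference 1.54, SE 0.18, adjusted p = 0.00132). Against naive it rose with poly IC (1.30, SE 0.22, adjusted p = 0.00163) and with poly IC plus ethanol (2.85, SE 0.22, adjusted p = 1.39e-05), where the ratio of means was 8.31. Slc10a6 alone among the 6 genes passed the test of ethanol against poly IC under all 14 alternative settings, with differences from 1.35 to 1.73 and adjusted p up to 0.0363. Its relative Slc10a3, an orphan carrier, was 3039 on the naive array, 1981 and 2031 with poly IC, then 2323 and 2754 with ethanol, and passed no test.

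Slc25a36, which carries pyrimidine nucleotides, was 6721 on the naive array, 2761 and 2117 with poly IC, then 4981 and 6403 with ethanol. Both poly IC arrays lay below the other 3, and the arrays with ethanol lay below naive. It rose with ethanol relative to poly IC (1.14, SE 0.19, adjusted p = 0.00687). The ADP/ATP carrier Slc25a4 was 12454 on the naive array, 5670 and 4907 with poly IC, then 9551 and 8287 with ethanol, the same order of groups (0.73, SE 0.15, adjusted p = 0.0175). For both genes the difference between ethanol and naive did not pass (-0.24, SE 0.23, adjusted p = 0.527, and -0.47, SE 0.19, adjusted p = 0.122). Slc25a51, the carrier of NAD into mitochondria, was 2805 on the naive array, 2689 and 3455 with poly IC, then 4754 and 6543 with ethanol. Naive fell between the poly IC arrays, and both ethanol arrays were above the other 3 (0.82, SE 0.20, adjusted p = 0.032). Its other probe set went from 1345 and 1576 with poly IC to 1584 and 1719 with ethanol (0.15, adjusted p = 0.81 over all probe sets).

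Slc41a1 was 1096 on the naive array, 2145 and 1576 with poly IC, then 2954 and 3994 with ethanol. The groups did not overlap, with the ethanol arrays highest (0.82, SE 0.22, adjusted p = 0.0429). Slc31a1 was 3591 on the naive array, 10769 and 11549 with poly IC, then 7747 and 5231 with ethanol. The poly IC arrays were the highest and the naive array the lowest, and the gene fell with ethanol (-0.78, SE 0.19, adjusted p = 0.0301). Another probe set of Slc31a1 ran the same way, from 3688 and 4275 to 2310 and 2372, but did not pass (-0.70, adjusted p = 0.08 over all probe sets).

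**Figure D1:**
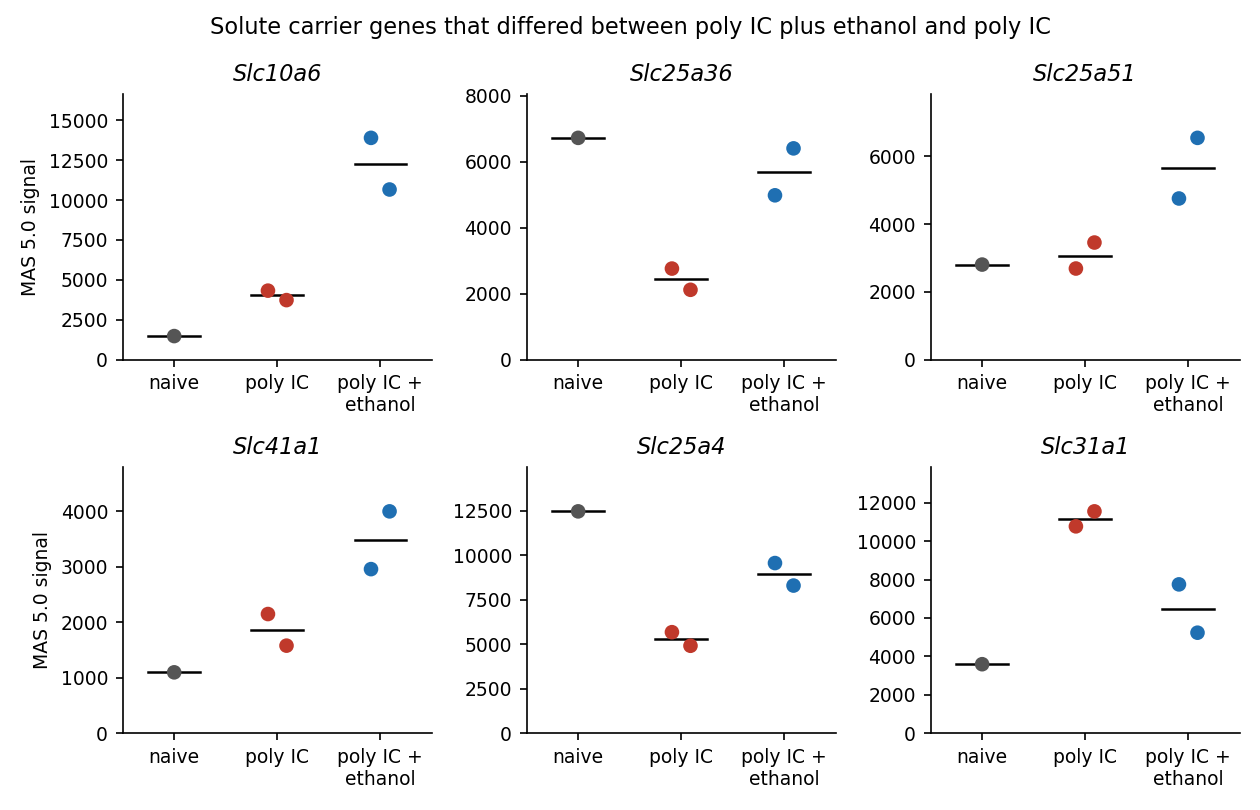
MAS 5.0 signal (linear vertical axes that start at 0 and differ between panels) of the 6 solute carrier genes that passed the test of poly IC plus ethanol against poly IC; each point is an array and each bar the group mean (1 naive array, 2 per treated group). Slc10a6 goes from 1478 to means of 4028 and 12280, whereas Slc25a36 and Slc25a4 are lowest in the poly IC group and Slc31a1 is highest there.

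With the variance trend left out of the fit, only Slc10a6 passed. Other calls were lost when a single array was left out, which also changed the estimated spread. Such a loss does not by itself show that the array carried the difference. Without poly IC replicate 1, Slc25a4, Slc25a51, Slc31a1 and Slc41a1 no longer passed, with differences of 0.83, 0.65, -0.83 and 1.01, and without poly IC replicate 2, Slc25a36 was lost as well (0.97, 0.63, 0.99, -0.73 and 0.62 for Slc25a36, Slc25a4, Slc25a51, Slc31a1 and Slc41a1). The call of Slc41a1 was also lost without ethanol replicate 2 (0.62), and those of Slc25a51 and Slc41a1 with median-centred arrays (0.73 each) or quantile normalization (0.75 and 0.73).

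Markers of the cells named in the labels and of other cells moved with the treatments. Fewer cells of a type and less RNA per cell cannot be told apart in such samples. Of 12 tested resident macrophage markers, 1 rose (Cd14) and 3 fell with poly IC, and none passed with ethanol against poly IC. The 3 were Gata6 (-2.23), Tgfb2 (-2.10) and Mertk (-0.80). The summed signal of the 13 on the array was 285439 on the naive array, 338657 to 372098 with poly IC and 333857 to 351643 with ethanol. Cd14 alone went from 47180 to 126412 and 147435 with poly IC, more than the rise of the sum, so the other markers together were lower. None of the 13 lay below the unspiked controls. Of 12 tested B cell markers, 11 fell with poly IC and 5 rose with ethanol, and the 14 on the array had sums of 380718, 164502 to 180297 and 230226 to 247428. Of 12 tested neutrophil markers, 7 rose and 1 fell with poly IC and 5 fell with ethanol. Mmp8, Cxcr2 and Ly6g, among the 7, met the signal threshold only through the poly IC arrays, where they were high. Mmp8 was also among the 5 that fell, so these calls support nothing further. The 15 on the array had sums of 24086, 90978 to 126710 and 34381 to 39118, and 8 of them lay below the unspiked controls on the naive array. Sums of 9 erythroid markers were 9687, 32118 to 41962 and 22839 to 28785 (2 of 5 tested rose with poly IC), and those of 11 T cell markers 30106, 12755 to 17026 and 23081 to 25245 (1 of 5 fell with poly IC and 1 rose with ethanol). Of 5 tested mast cell markers 1 rose with poly IC and 1 fell with ethanol, and the 1 tested mesothelial marker passed neither test. B cell and T cell sums were thus lowest with poly IC, as were Slc25a36 and Slc25a4. Cd2 made up most of the T cell sum on every array and was the T cell marker that passed both tests. It was 21779 on the naive array, 10284 and 7161 with poly IC, then 17343 and 18478 with ethanol. The other tested T cell markers did not pass and were split with poly IC: Cd4 (0.52) and Zap70 (0.23) were higher, Cd3d (-0.46) and Il7r (-0.42) lower. The order of the T cell sums was thus mainly that of Cd2. Neutrophil and erythroid sums were highest with poly IC, as was Slc31a1, but no erythroid marker passed with ethanol against poly IC. The erythroid markers Hba-a1, Hbb-b2 and Tfrc each overlapped between those groups. The part of these cells in the differences of solute carrier genes was not tested. The 18S ribosomal RNA signal (3′ probe set) was 66548 in poly IC replicate 2 and 5113 to 19415 on the other arrays, and ratios of 3′ to 5′ actin signals were 1.04 to 1.15.

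By class, 3 of 15 mitochondrial carriers rose with ethanol, 1 of 13 metal and haem carriers rose and 1 fell, and 1 of 8 carriers of carboxylates, lipids and related compounds rose, this one being Slc10a6. These were 20%, 15.4% and 12.5% of their small classes, beside 10.4% of all genes tested. None of 16 amino acid and peptide carriers, 14 sugar and nucleotide sugar carriers, 9 ion and pH carriers, 5 organic ion carriers or 4 nucleoside and vitamin carriers passed, and at an unadjusted p under 0.05 there were 3, 2, 1, 2 and 1. Nearest to passing among them were Slc50a1, a sugar carrier (2362 and 2411 with poly IC, 3703 and 3513 with ethanol, adjusted p = 0.0624), Slc7a5 (4984 and 4876, 3301 and 3395, adjusted p = 0.0688) and Slc22a17, a receptor for lipocalin-2 (1336 and 1070, 2095 and 1939, adjusted p = 0.0693). In each of these 3 genes the arrays of the groups did not overlap; this held for 49 of the 88 genes (55.7%), against 54.7% of all genes.

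With poly IC alone, compared with naive, 9 of the 88 genes rose and 14 fell. Amino acid carriers, copper and iron carriers and the potassium-chloride cotransporter Slc12a4 were among the risers. Sugar and nucleotide sugar carriers and mitochondrial carriers contributed 9 of the 14 falls and no rise. Of the 14, 2 (Slc37a4 and Slc4a3) met the signal threshold only because they were high on the naive array. In all, 26.1% of the genes differed, beside 31.6% of all genes tested (11.7% higher and 19.9% lower), and the medians were 0.02 and -0.16. Poly IC and naive arrays did not overlap for 86.4% of the 88 genes, against 87.0% of all genes. In a called gene the order of these 2 groups therefore shows nothing by itself. The scale of the arrays bore on the split: centring each array on its median moved the median of all genes to 0.04 and gave 18 higher and 9 lower solute carrier genes, and quantile normalization gave 13 and 10.

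Among amino acid carriers 4 of 16 rose and 2 fell (median difference 0.49, 37.5% called beside 31.6% of all genes tested). Slc7a5, the light chain that imports leucine and other large neutral amino acids, was 1807 on the naive array, 4984 and 4876 with poly IC, then 3301 and 3395 with ethanol (1.33, SE 0.20, adjusted p = 0.00077). Slc7a7, which exchanges cationic for neutral amino acids, was 4732, then 11298 and 11679, then 12520 and 8684 in the same order (1.24, SE 0.22, adjusted p = 0.00225). Their heavy chain Slc3a2 rose as well, from 8746 to 11986 and 12755 (0.49, SE 0.16, adjusted p = 0.0411), and was 12772 and 12846 with ethanol. The taurine carrier Slc6a6 was 8169 on the naive array, 13741 and 11944 with poly IC, then 16355 and 15074 with ethanol (0.63, SE 0.17, adjusted p = 0.0166). All 4 risers were lowest on the naive array, an order against poly IC that the call largely fixed. Slc7a11, which imports cystine for glutathione, was 154 in naive cells, under the floor set by the controls, and 581 and 764 with poly IC, and did not pass (1.18, SE 0.45, adjusted p = 0.07).

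The 2 amino acid carriers that fell belong to the Slc38 family of sodium-coupled carriers of neutral amino acids. Slc38a10 was 5366 on the naive array, 1512 and 1369 with poly IC, then 2203 and 2318 with ethanol (-1.73, SE 0.22, adjusted p = 0.000269). Slc38a2, a glutamine carrier, was 6189, then 3467 and 3329, then 5215 and 4539 (-0.82, SE 0.20, adjusted p = 0.0106). In both genes the poly IC arrays were the lowest and the naive array the highest, and the call largely fixed the order of these 2 groups. With the mean of all probe sets of each gene, neither passed (-0.82 and -0.22), their other probe sets having mean signals of at most 198. Slc38a5, the third measured member of that family, was 1201 on the naive array and 1489 and 1292 with poly IC and passed no test.

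Metal carriers rose in 2 of 13 cases (15.4% called beside 31.6% of all genes tested). Slc31a1 gave a difference of 1.57 (SE 0.23, adjusted p = 0.000802), with 3591 on the naive array and 10769 and 11549 with poly IC. Slc11a2, which moves ferrous iron across the plasma membrane and out of endosomes, was 1834 on the naive array, 5321 and 5875 with poly IC, then 5374 and 3573 with ethanol (1.49, SE 0.25, adjusted p = 0.00166). Its other probe set went from 266, under that floor, to 5041 and 4760. None of the 4 Slc30 and 5 Slc39 zinc carriers passed with poly IC, with differences from -0.46 to 0.55, and at an unadjusted p under 0.05 there was 1, Slc30a3 (5153, then 6651 and 8839, then 7264 and 9438, adjusted p = 0.10). The haem carrier Slc48a1 was 2352 on the naive array, 963 and 1534 with poly IC, then 1384 and 507 with ethanol, without passing (adjusted p = 0.18). Other genes of zinc and copper handling, from a list chosen with earlier results of these data known, rose in 3 of 9 cases and fell in none: Mt1 (3.75) and Mt2 (6.03), metallothioneins that hold zinc and copper ions, and Cox17 (0.75), a copper chaperone of mitochondria.

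Mitochondrial carriers fell in 4 of 15 cases and rose in none (median difference 0.00, 26.7% called beside 31.6% of all genes tested). With median-centred arrays the same number fell and 3 rose, and with quantile normalization 1 rose. Slc25a36 (-1.38, SE 0.23, adjusted p = 0.00174) and Slc25a4 (-1.20, SE 0.19, adjusted p = 0.00107) were 2 of the 4. Slc25a11, which exchanges oxoglutarate for malate, was 3670 on the naive array, 1350 and 1188 with poly IC, then 1841 and 1550 with ethanol (-1.37, SE 0.24, adjusted p = 0.00205). Slc25a15, an ornithine carrier of the urea cycle, was 3238, then 1441 and 1101, then 1941 and 2969 (-1.21, SE 0.28, adjusted p = 0.00986). In all 4 genes the poly IC arrays were the lowest of the 5, and the call largely fixed their place below naive. Slc25a5, a second ADP/ATP carrier, had another order of groups: it was 6358 on the naive array, 8640 and 8074 with poly IC, then 6319 and 7120 with ethanol, and did not pass (0.38, SE 0.18, adjusted p = 0.14). A dimmer probe set of Slc25a5 was highest on the naive array (1384, then 1043 and 1138, then 991 and 1337). Its dimmest was highest with poly IC (102, then 400 and 540, then 285 and 67), and neither passed. Slc25a3, the phosphate carrier, and Slc25a1, the citrate carrier, had differences of -0.02 and 0.08. Slc25a17, a relative that lies in peroxisomes, was 4860 on the naive array, 5737 and 4135 with poly IC, then 6086 and 6298 with ethanol, the poly IC arrays lying on either side of naive.

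**Figure D2:**
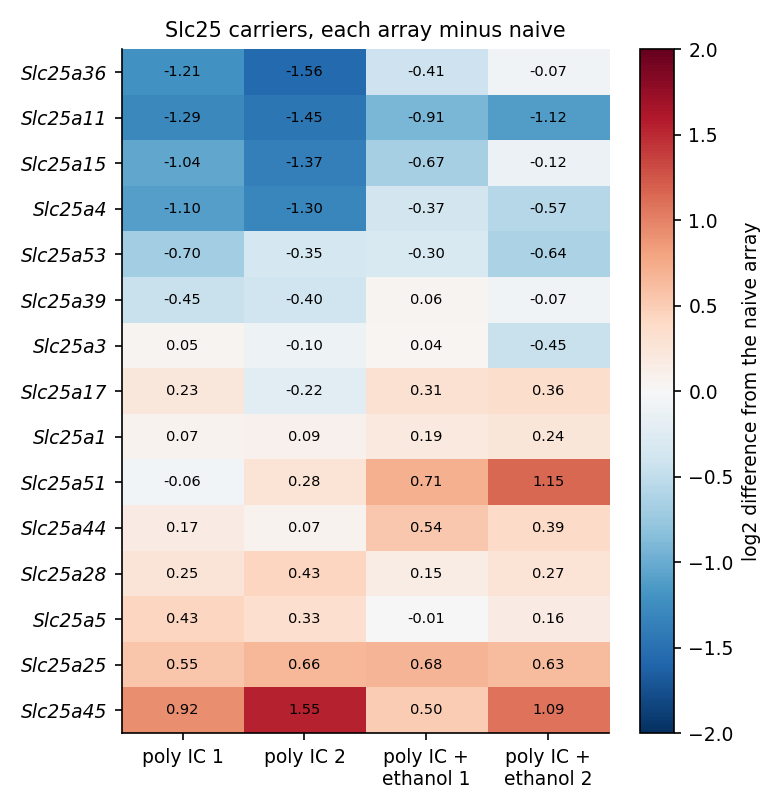
Log2 difference of (signal + 250) of each of the 15 Slc25 genes between each treated array (columns) and the naive array; rows are ordered by the mean difference with poly IC, blue is below naive and red above. Slc25a36, Slc25a11, Slc25a15 and Slc25a4 lie between -1.56 and -1.05 on the poly IC arrays and between -1.12 and -0.07 with ethanol, and Slc25a51 reaches 0.71 and 1.15 with ethanol.

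Sugar and nucleotide sugar carriers fell in 5 of 14 cases and rose in none (median difference -0.36, 35.7% called beside 31.6% of all genes tested). With median-centred or quantile-normalized arrays only 2 fell (medians -0.16 and -0.17). Slc50a1 was 5379 on the naive array, 2362 and 2411 with poly IC, then 3703 and 3513 with ethanol (-1.09, SE 0.20, adjusted p = 0.0025). Slc37a4, which brings glucose-6-phosphate into the endoplasmic reticulum, fell from 2012 to 486 and 194, a mean below the brightest unspiked control and so at least 5.36-fold lower (adjusted p = 0.0267). Slc37a4 met the signal threshold only through the naive array, where it was high, so its fall supports nothing further. The other falls were in the Slc35 family, which brings nucleotide sugars and sulphate donors into the Golgi: Slc35a1, the CMP-sialic acid carrier (1288 to 548 and 401, adjusted p = 0.0405), Slc35b2, the carrier of the sulphate donor PAPS (3795 to 1879 and 2090, adjusted p = 0.0222), and Slc35c2 (3017 to 1250 and 1521, adjusted p = 0.00933). With ethanol these 3 genes were at 830 and 870, 2788 and 2047, and 2092 and 1958, in each case below naive. The hexose carriers Slc2a3 (573 on the naive array, 633 and 505 with poly IC) and Slc2a8 (1828, 1739 and 1505) did not pass, nor did Slc5a6, which carries biotin and pantothenate although its family is counted with sugars (1043, 294 and 537).

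Among the carriers of inorganic ions, Slc12a4, which lets potassium and chloride out of the cell, rose from 981 to 3419 and 3605 and was 3183 and 4287 with ethanol (1.61, SE 0.23, adjusted p = 0.000697). Its relatives Slc12a2 (1439, then 1350 and 1590) and Slc12a7 (1503, then 1212 and 982) did not pass. Slc4a3, a chloride-bicarbonate exchanger, fell from 1006 to 212 and 140, at least 2.68-fold, with a poly IC mean below the brightest unspiked control (adjusted p = 0.0301), and it too met the threshold only through the naive array. Slc22a17 fell from 2690 to 1336 and 1070 (-1.02, SE 0.24, adjusted p = 0.00993), and Slc29a1, an equilibrative nucleoside carrier, from 2316 to 901 and 1069 (-1.06, SE 0.30, adjusted p = 0.023). The direction of Slc29a1 turned with the mean of its probe sets (0.26), its other probe set being 78 on the naive array and 569 and 908 with poly IC. The scaffold gene Slc9a3r1 rose from 10061 to 24957 and 25091 (1.29, SE 0.14, adjusted p = 0.000124), and was 20918 and 22344 with ethanol.

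**Figure D3:**
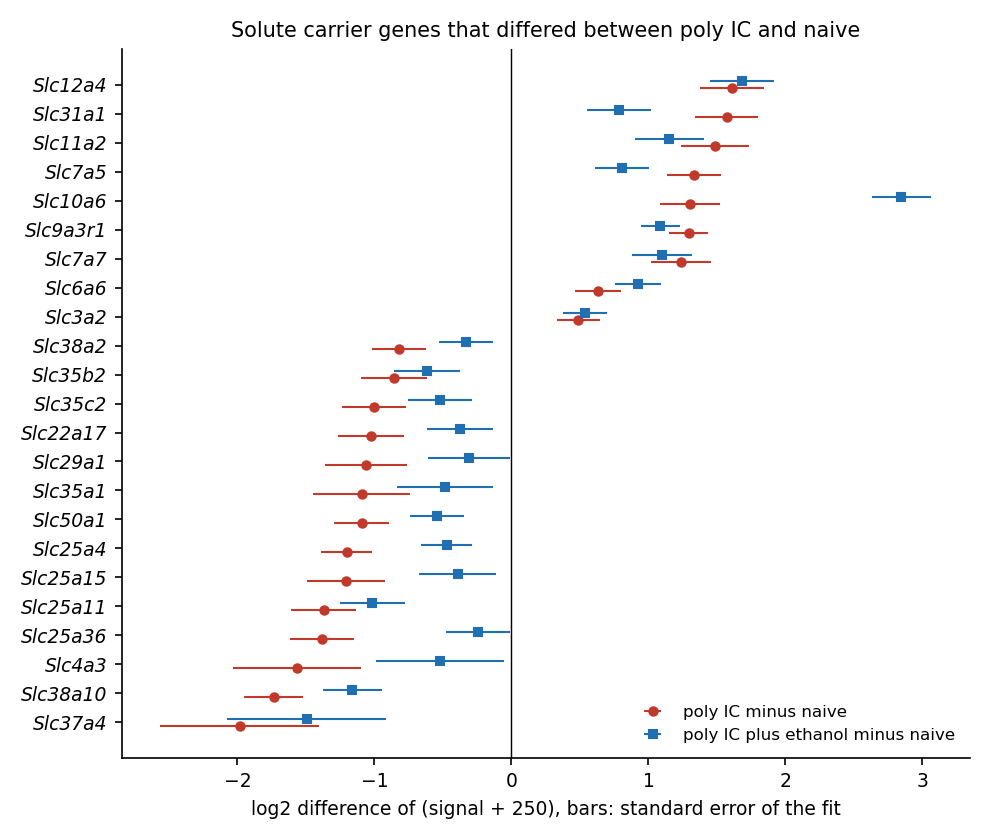
Log2 difference of (signal + 250) from naive for the 23 solute carrier genes that passed the test of poly IC against naive, with poly IC (red circles) and with poly IC plus ethanol (blue squares); bars are standard errors of the fit and both contrasts share the naive array. The genes were selected on the red values, so a smaller blue value shows nothing by itself; Slc10a6 stands at 1.30 and 2.85, and Slc38a10 at -1.73 and -1.16.

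Of these 23 calls, 11 were kept under all 12 alternatives: Slc10a6, Slc11a2, Slc12a4, Slc31a1, Slc7a5, Slc7a7 and Slc9a3r1 among the risers, and Slc25a11, Slc25a36, Slc25a4 and Slc50a1 among the falls. Without poly IC replicate 1 the calls of Slc29a1, Slc35a1, Slc35b2, Slc35c2, Slc4a3, Slc3a2 and Slc6a6 were lost (-0.96, -1.24, -0.79, -0.88, -1.69, 0.53 and 0.53). Without poly IC replicate 2 those of Slc22a17, Slc25a15, Slc29a1, Slc35a1, Slc35b2, Slc37a4, Slc38a2, Slc4a3 and Slc3a2 were lost (-0.89, -1.05, -1.16, -0.95, -0.93, -1.62, -0.79, -1.44 and 0.44). With median-centred arrays the calls of Slc29a1, Slc35a1, Slc35b2, Slc37a4 and Slc4a3 were lost (-0.86, -0.90, -0.66, -1.79 and -1.37), and with quantile normalization the first 4 of these (-0.87, -0.93, -0.68 and -1.80).

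**Figure D4:**
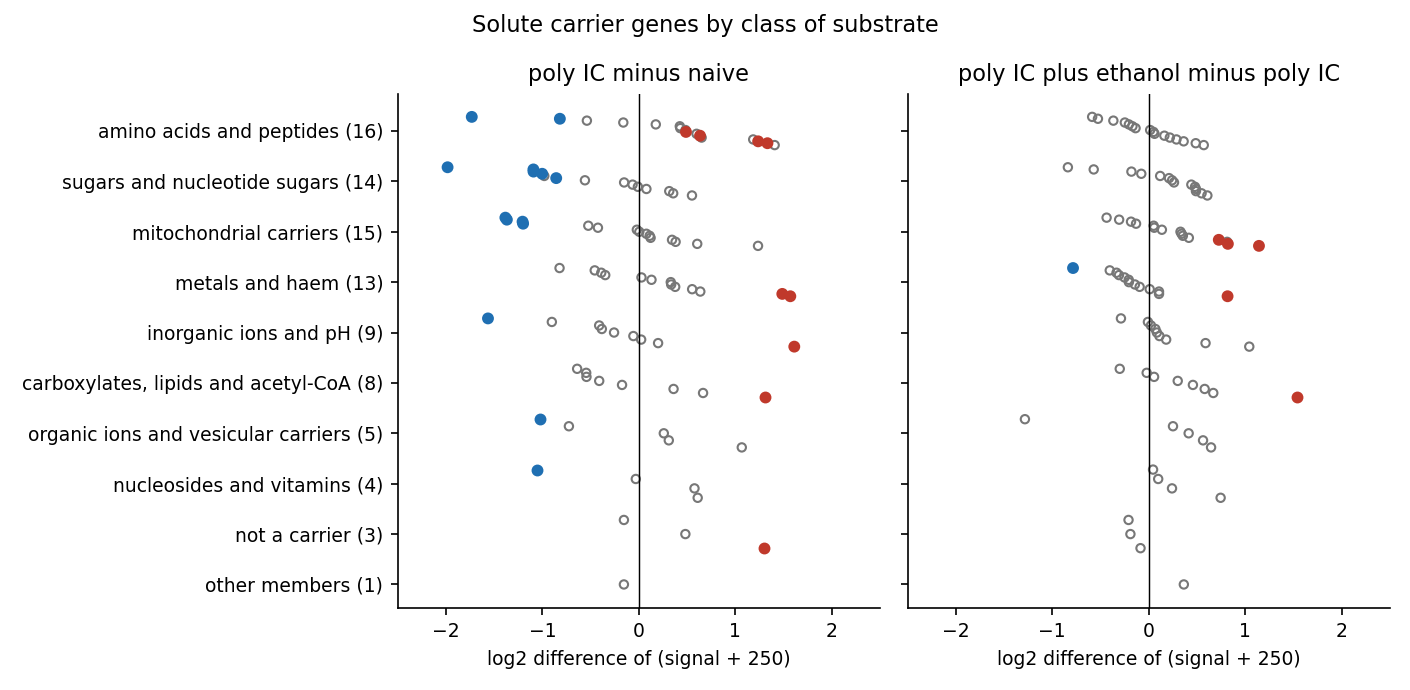
Log2 difference of (signal + 250) of each of the 88 genes, by class of substrate (number of genes in brackets), for poly IC minus naive (left) and poly IC plus ethanol minus poly IC (right); filled points passed the test, red higher and blue lower, and open points did not. Both contrasts use the poly IC arrays. With poly IC, 9 points are red and 14 blue, and with ethanol 5 are red and 1 is blue.

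With poly IC plus ethanol, compared with naive, 13 of the 88 genes rose and 2 fell, 17% of them, beside 16.4% of all genes tested (8.34% higher and 8.09% lower), with medians of 0.09 and -0.11. With median-centred arrays 12 were higher and 2 lower. Slc10a6 (2.85), Slc12a4 (1.68, SE 0.23, adjusted p = 0.000888), Slc41a1 (1.45, SE 0.27, adjusted p = 0.00502), Slc11a2 (1.15), Slc7a7 (1.10) and Slc9a3r1 (1.08) had the largest rises. Further risers were Slc25a51 (0.93), Slc6a6 (0.92), Slc6a9, a glycine carrier (0.87), Slc23a2, an ascorbate carrier (0.82), Slc7a5 (0.81), Slc31a1 (0.79) and Slc3a2 (0.54). Slc38a10 (-1.16, SE 0.22, adjusted p = 0.00527) and Slc25a11 (-1.01, SE 0.24, adjusted p = 0.0181) were the genes that fell. The call of Slc38a10 was lost with the mean of its probe sets (-0.47, adjusted p = 0.326) and that of Slc25a11 without the signal filter (adjusted p = 0.0604). Under all 12 alternatives, 5 of the 15 calls were kept, those of Slc10a6, Slc12a4, Slc41a1, Slc6a6 and Slc9a3r1. Slc23a2 was 2640 on the naive array, 3872 and 4253 with poly IC, then 4219 and 5559 with ethanol, and Slc6a9 was 1753, then 2810 and 2979, then 2747 and 4221. Each was lowest on the naive array, an order against the ethanol arrays that the call largely fixed. Without 1 array, calls of 5 of these genes were lost: Slc31a1 without ethanol replicate 1 (0.51), Slc6a9 without ethanol replicate 2 (0.58), and Slc23a2, Slc31a1, Slc3a2, Slc6a9 and Slc7a5 without either poly IC array, which left their differences as they were and changed the estimated spread.

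Of the 88 genes, 61 passed in none of the 3 comparisons; the comparisons share arrays, and no overlap between them was read as a result. Several of these genes were bright on every array. Slc39a7, which releases zinc from the endoplasmic reticulum, was 6815 on the naive array and between 5984 and 7363 on the treated ones. Slc39a4, a zinc importer, was 5852 on the naive array, 7423 and 7923 with poly IC, then 6920 and 9898 with ethanol. Its other probe set was dimmer and highest on the naive array (1296, then 694 and 867, then 1243 and 1148), and passed no test. Slc35b1, which exchanges ATP and ADP across the membrane of the endoplasmic reticulum, was 5006, then 6750 and 5853, then 5746 and 6159. The sodium-proton exchanger Slc9a8 of the Golgi was 3681 on the naive array and between 4171 and 4708 on the treated ones. The choline carrier relatives Slc44a1, Slc44a2 and Slc44a4 differed from naive by 0.67, -0.18 and 0.36 with poly IC. Between ethanol and poly IC their differences were -0.30, 0.06 and -0.02.

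The remaining carboxylate and fatty acid carriers were dim. Slc16a7 and Slc16a8, of the monocarboxylate family, were 653 and 796 on the naive array, and Slc27a4, a fatty acid transport protein, was 653. With poly IC the first 2 were at 453 and 293 and at 574 and 297, and with ethanol at 636 and 564 and at 605 and 928. Slc27a4 was 677 and 1009 with ethanol and 468 at most with poly IC. All 3 were lowest on the poly IC arrays, and none passed. Their poly IC means (373, 435 and 430) lay under the signal threshold, which they met only through the naive and ethanol arrays. The selection by mean signal thus favours this order in dim genes, and nothing is concluded from it. Slc22a5, a carnitine carrier, was lowest on the poly IC arrays as well (838, then 540 and 297, then 683 and 764), and did not pass either. Its poly IC mean (419) also lay under the threshold, so the same limit holds. Slc22a12, a urate carrier, differed widely within 1 group, with 2060 and 471 in the poly IC pair. Slc19a1, the reduced folate carrier, was 698 on the naive array, 1161 and 1232 with poly IC, then 1059 and 1451 with ethanol, lowest on the naive array but without passing (0.61, SE 0.30, adjusted p = 0.151). Its other probe set ran the other way and passed no test either. That probe set was 1251 on the naive array, 1082 and 780 with poly IC, then 528 and 977 with ethanol.

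Genes that work with the carriers, from lists chosen with earlier results of these data known, were tested in the same fit. Of 5 measured sodium pump subunits and accessory chains, among them Bsg, the chaperone of lactate carriers, none passed in any comparison. Of 16 genes of the amino acid and oxidative stress responses, 5 rose and none fell with poly IC, and the largest test statistics were those of Atf3 (6835 on the naive array, 30243 and 34302 with poly IC), Nfe2l2 (4311, then 17372 and 17640) and Gsr (4209, then 7657 and 7288). None of the 16 passed with ethanol against poly IC. Among 17 ABC transporter genes, the other large family of transporters, 1 rose and 3 fell with poly IC, and 1 (Abcf2) fell with ethanol. Both ethanol values of Abcf2 lay under the floor set by the controls, and its mean met the threshold only through the poly IC arrays, where it was high. Abcb8, 1 of the 3 that fell with poly IC, met the threshold only through the naive array (1531, then 313 and 291 with poly IC). Its poly IC values lay under that floor, so its fall supports nothing further. Abca1, the cholesterol exporter, rose from 8452 to 18956 and 21268, and Abcd3, of the peroxisomal membrane, fell from 3765 to 943 and 1222.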

How the data were processed

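The submitters hybridised labelled cRNA to MG-U74Av2 arrays and made signals with Affymetrix Microarray Suite 5.0, per the labels' protocols, which also name Data Mining Tool 3.0. The deposited values are intensities on a linear scale, 1 per probe set and array, scaled by the authors to a target of 2500, per the labels; such scaling hides a general change in RNA content. Of 12488 probe sets, 66 were controls, 10833 had 1 gene symbol in the platform annotation, 396 several and 1193 none listed. Symbols were updated by Entrez ID for 10817 through a RefSeq table.

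Genes with a mean signal of at least 500 (5622) were fitted together as log2(signal + 250), with a mean per group, in limma 3.58.1 under R 4.3.3 (lmFit, eBayes with an intensity trend; 2 residual and 7.48 prior degrees of freedom; two-sided p-values). The fit was tested on simulated data with normal noise whose spread depended on signal level alone. That run could not check how the fit handles spread that differs between genes of the same level. Where a group mean lay below the brightest unspiked control probe set of its arrays (302 to 444 over groups), the fold was given as a bound against that control. Members, classes, lists and motifs were chosen with earlier results of these data known. Genes named were those called in any comparison, the 2 of highest mean signal in each class, and relatives of these. The number of arrays limits the precision. Alternatives covered the offset, filter, scaling, variance trend, probe sets, a replicate block and leaving out each treated array. Plots used matplotlib 3.10.9 (Python 3.11.15).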

Additional observations from a re-analysis of the deposited data

How the results depend on the processing

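For ethanol against poly IC, 6 genes were called; 3 without the signal filter, 1 with eBayes without the trend, and from 1 to 13 with a treated array left out (1 without poly IC replicate 2, 2 without poly IC replicate 1, 11 without ethanol replicate 2 and 13 without ethanol replicate 1). For poly IC against naive the 23 calls became 16 to 35 with an array left out, and for ethanol against naive the 15 became 10 to 21, 9 without the filter and 7 without the trend. A left-out array leaves 1 residual degree of freedom fewer, and the lone array of its group is assumed to vary like the others. Replicate numbers did not pair the arrays (r = 0.05 between deviations of same-numbered arrays); with the replicate block, on the 4 treated arrays, 9 genes were called. Over all called genes and alternatives, 446 of 539 kept direction and call, 92 lost the call and 1 reversed, Slc29a1 with poly IC (0.26 with the mean of its probe sets); the cause was not tested.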

Other observations

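A few solute carrier genes had large differences that did not pass. Slco3a1, an organic anion carrier, was 925 on the naive array, 3353 and 1429 with poly IC, then 481 and 1148 with ethanol, and fell short with ethanol against poly IC (-1.28, SE 0.39, adjusted p = 0.07). Slc1a4, a carrier of alanine, serine and cysteine, was 150 on the naive array, 805 and 815 with poly IC, then 202 and 1248 with ethanol, the ethanol arrays lying on either side of the poly IC pair. Slc25a45, an orphan of the mitochondrial family, was 216 on the naive array, 635 and 1111 with poly IC, then 411 and 745 with ethanol. The naive signals of Slc1a4 and Slc25a45 lay below the brightest unspiked control. The serotonin carrier Slc6a4 was between 578 and 982 on all arrays. Slc66a2, the member with no assigned class of substrate, was 4435 on the naive array, 3651 and 4284 with poly IC, then 5225 and 5107 with ethanol and passed no test. These genes were singled out after their values were seen.

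Of the 62 solute carrier genes below the signal threshold, 47 had a naive mean below the brightest unspiked control, 51 a poly IC mean and 54 an ethanol mean. A group mean of at least 500 was seen for 4 of them in the naive sample, 2 with poly IC and 7 with ethanol. Slc4a1, the anion exchanger of red cells, was among them, with 712 on the naive array, 281 and 171 with poly IC, then 506 and 788 with ethanol. That order differs from that of haemoglobin Hba-a1, which was 668 on the naive array, 14514 and 26049 with poly IC, then 14985 and 7794 with ethanol. Both poly IC values of Slc4a1 lay under the floor set by the controls, and its differences were not tested, so nothing is concluded from its order.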
